A study of Mus musculus with 18 samples.

Results

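The heterogeneous nuclear ribonucleoprotein (hnRNP) genes and the serine/arginine-rich (SR) splicing factor genes of cultured mouse astrocytes are described here. The members were all protein-coding genes of the deposited count table whose symbol starts with *Hnrnp* or with *Srsf* and a number. These were 31 of the 51912 genes counted, 20 hnRNP genes and 11 SR genes, spread over 16 chromosomes. All 31 passed the filter on low counts (at least 10 read pairs summed over the 18 libraries) and all averaged at least 5 CPM, the unit used throughout (read counts scaled for library size).

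hnRNP proteins coat nascent transcripts and act in splicing, 3′ end processing, export, mRNA stability and translation. SR proteins bind exonic enhancers through RNA recognition motifs and recruit the splicing machinery through a domain rich in serine and arginine, and both families set which exons are used. Many of these genes limit their own output by splicing in an exon or an intron that sends the transcript to nonsense-mediated decay (NMD). Several also shuttle to the cytoplasm, where they take part in mRNA export, decay and translation.

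The study compared RNA of primary cortical astrocytes with and without ethanol, in cleared lysate and bound to tagged ribosomes. Cultures came from cortices of postnatal day 0 pups, male and female in equal number. The pups were hemizygous for the transgene Tg(Aldh1l1-EGFP/Rpl10a)JD130Htz, from a B6;FVB line that was crossed to C57BL/6J mice. The transgene drives an EGFP-tagged ribosomal protein L10a from the promoter of *Aldh1l1*, an astrocyte gene, and control dishes carried it as well. Cells grew for 14 days, were replated for a further 6 days, kept for 24 h without serum, and then held for 24 h in serum-free medium with 0 mM (control) or 50 mM ethanol. Ribosomes were pulled down through the tag by translating RNA affinity purification (TRAP, the IP fraction). Input RNA was taken from the same lysates, after insoluble material had been spun out. There were 6 IP control, 6 IP ethanol, 3 input control and 3 input ethanol libraries, the input libraries being from the dishes of replicates 4 to 6. Pups were pooled into cultures, so that a replicate is a dish.

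The libraries held 74239854 to 132810705 read pairs assigned to genes. *Aldh1l1* was at 375 ± 14.9 CPM in IP (SD, n = 12) and 181 ± 9.87 in input (SD, n = 6). None of 10 astrocyte markers was under 1 CPM in any group, and their summed level was 1167 to 1247 CPM over the input libraries and 1799 to 2000 over the IP libraries. Markers of other cells were also detected. The 8 microglial markers summed to 70.6 to 85.3 CPM in input and 12.3 to 16.2 in IP, with 1 and 4 of them under 1 CPM. Of the 8 neuronal and the 8 oligodendrocyte lineage markers, 3 each were under 1 CPM, and both sums were higher in IP. The neuronal markers summed to 84.0 to 91.8 CPM in input and 116 to 134 in IP. Those of the oligodendrocyte lineage summed to 46.8 to 53.8 CPM in input and 68.5 to 80.6 in IP. The single markers were split (edgeR adjusted p under 0.05). Of the oligodendrocyte lineage 3 were higher and 4 lower in IP, and of the neuronal markers 5 were higher and 1 lower.

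The summed level of the 31 genes was lower with ethanol in both fractions. In input the sum was 4001 to 4047 CPM in control and 3737 to 3761 CPM in ethanol libraries. In IP it was 4427 to 4575 CPM in control and 4112 to 4239 CPM in ethanol libraries. The groups did not overlap in either fraction. The sum of the SR genes alone did overlap in input, at 615 to 646 CPM in control and 584 to 629 CPM in ethanol libraries. Most of this level came from hnRNP genes, with a median sum of 3401 CPM in input control, against 637 CPM for SR genes. In RNA from whole dishes, fewer cells of a type and less RNA per cell cannot be told apart.

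Per length, the order of the genes in input control libraries depended on how reads shared with a gene on the opposite strand were treated. The level is given here in CPM per kilobase of exon, from counts of the sense strand. *Hnrnpab*, an RNA and DNA binding protein that also occurs on promoters, was highest at 89.5 CPM per kilobase. *Hnrnpk*, which binds C-rich stretches, followed at 74.2 and *Hnrnpa0* at 71.1. Of the SR genes, *Srsf9* at 34.2 and *Srsf5* at 34.0 CPM per kilobase were highest and nearly level, and *Srsf12* at 1.75 was the lowest member. In the unstranded counts *Hnrnpab* ranked 6 with 42.2 CPM per kilobase, since a read pair over exons of genes on both strands is assigned to neither. Sense-strand counts were 5.39 times the unstranded counts for *Srsf4*, 2.24 times for *Hnrnpab*, 2.11 times for *Srsf2*, 1.33 times for *Hnrnpf* and 1.29 times for *Hnrnph3*. These genes overlap genes on the other strand, *Srsf2* for example with *Mfsd11* and *Mettl23*, *Hnrnpab* with *Phykpl* and *Hnrnph3* with *Rufy2*. *Hnrnpm* shares exon bases with *March2* on its own strand, which counting by strand cannot separate. Several hnRNP genes, *Hnrnpa1* among them, have processed pseudogenes, and pairs that matched more than 1 place were not counted.

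The treatment comparison asked what ethanol changed in the ribosome-bound RNA and in the RNA of the cleared lysate. Ethanol lowered 19 of the 31 genes in IP and 19 of 31 in input, and raised none in either (edgeR's quasi-likelihood test, Benjamini-Hochberg adjusted p under 0.05). Of all genes tested, 9.48% were lower and 11.9% higher in IP, and 7.78% were lower and 7.21% higher in input. Among the genes averaging 5 CPM or more, the shares were 17.3% lower and 22.9% higher in IP, and 15.2% lower and 14.5% higher in input. In each fraction the lower genes were 13 of 20 hnRNP and 6 of 11 SR genes. DESeq2's Wald test called 21 lower and 0 higher in IP, and 18 lower and 1 higher in input. At an unadjusted edgeR p under 0.05, 0 genes were higher in IP and 1 in input. The higher gene in input was *Srsf5* by either count. Shares of all genes called were counted for the adjusted edgeR p alone. The median log2 fold change of the 31 genes was -0.11 in IP and -0.10 in input, and that of all genes tested was 0.01 and -0.00.

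**Figure D1:**
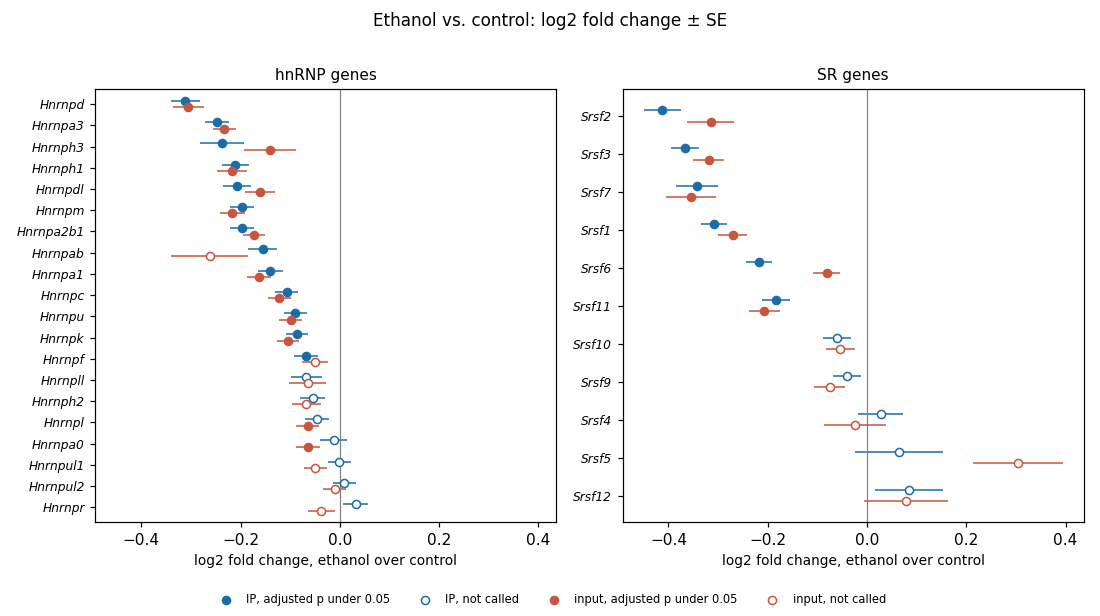
Log2 fold change of ethanol over control (x axis, whiskers ± SE) for the 20 hnRNP genes (left) and the 11 SR genes (right), in IP (blue) and input (red), with filled points where the edgeR adjusted p was under 0.05. Every filled point lies left of 0, and *Srsf2*, *Srsf3*, *Srsf7*, *Srsf1* and *Hnrnpd* lie farthest left in both fractions.

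The decreases were small and separated the groups. The groups did not overlap, with every ethanol library lower, for 17 of 31 genes in IP (4.87% of all genes) and for 21 in input (13.1% of all genes). In both fractions this held for 16 genes. Shares without overlap were not counted for both fractions together, nor for genes averaging 5 CPM or more, as all members do. With every ethanol library higher there were 0 genes in IP (5.09% of all genes) and 2 in input, *Srsf5* and *Srsf12* (14% of all genes). Called decreases ranged from -0.41 to -0.07 on the log2 scale in IP and from -0.36 to -0.06 in input. Against a null hypothesis of a 1.2-fold change, 2 genes in IP and 0 in input were called. No share of all genes was counted for that test.

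The 3 largest decreases in each fraction were those of SR genes. *Srsf2* encodes SC35, a component of nuclear speckles. It was at 24.5, 24.6 and 22.1 CPM in input control and at 18.8, 20.4 and 18.1 CPM in input ethanol libraries. In IP it ranged from 23.3 to 26.1 CPM in control (median 24.5) and from 17.3 to 19.4 in ethanol libraries (median 18.3). All ethanol libraries were below all control libraries of their fraction. The log2 fold change was -0.41 ± 0.04 in IP (SE, edgeR adjusted p = 2.67e-13) and -0.31 ± 0.05 in input (edgeR adjusted p = 2.66e-09). The level fell by 24.9% in IP and fell by 19.6% in input. With sense-strand counts it was -0.38 and -0.29.

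*Srsf3* encodes the smallest SR protein, which also serves as an adaptor for mRNA export. Its level was 66.3, 64.6 and 62.8 CPM in input control and 54.7, 51.3 and 49.6 CPM in input ethanol libraries. In IP it was 58.9 to 61.7 CPM in control (median 60.7) and 43.4 to 48.8 CPM in ethanol libraries (median 47.1). The groups stood apart in both fractions, and the lowest value of all was in IP ethanol replicate 2. The log2 fold change was -0.37 ± 0.03 in IP (edgeR adjusted p = 1.08e-15) and -0.32 ± 0.03 in input (edgeR adjusted p = 9.08e-22).

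*Srsf7* encodes 9G8, which like SRSF3 links splicing and polyadenylation to export. It was at 21.8, 21.5 and 19.4 CPM in input control and at 16.4, 16.8 and 15.9 CPM in input ethanol libraries. In IP it ranged from 18.0 to 20.1 CPM in control (median 19.7) and from 13.5 to 16.3 CPM in ethanol libraries (median 15.4). Again no ethanol library reached the lowest control library. The log2 fold change was -0.36 ± 0.05 in input (edgeR adjusted p = 2.62e-10), the largest decrease there, and -0.34 ± 0.04 in IP (edgeR adjusted p = 2.32e-09).

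*Srsf1*, which encodes the founding SR protein SF2/ASF, was next among the SR genes. Its log2 fold change was -0.31 ± 0.03 in IP (edgeR adjusted p = 2.44e-14) and -0.27 ± 0.03 in input (edgeR adjusted p = 9.51e-18). Its values were 75.7, 71.5 and 74.9 CPM in input control and 63.2, 61.2 and 60.2 CPM in input ethanol libraries. In IP they were 77.9 to 84.2 CPM in control (median 83.3) and 64.7 to 68.8 CPM in ethanol libraries (median 66.2). The groups did not overlap. The remaining called SR genes were *Srsf6* (-0.22 in IP and -0.08 in input) and *Srsf11* (-0.18 and -0.21). The call of *Srsf6* in input was lost without input control replicate 5 or input ethanol replicate 6 (edgeR adjusted p = 0.190 and 0.211).

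Among the hnRNP genes *Hnrnpd* fell most. It encodes AUF1, which binds AU-rich elements and acts in mRNA decay. It was at 70.1, 66.0 and 66.3 CPM in input control and at 55.8, 53.2 and 55.3 CPM in input ethanol libraries. In IP it ranged from 72.8 to 84.0 CPM in control (median 79.6) and from 61.2 to 67.9 CPM in ethanol libraries (median 63.1). Here too every ethanol library was below every control library. The log2 fold change was -0.31 in both fractions, with an SE of 0.03 each (edgeR adjusted p = 1.13e-12 in IP and 8.51e-21 in input).

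**Figure D2:**
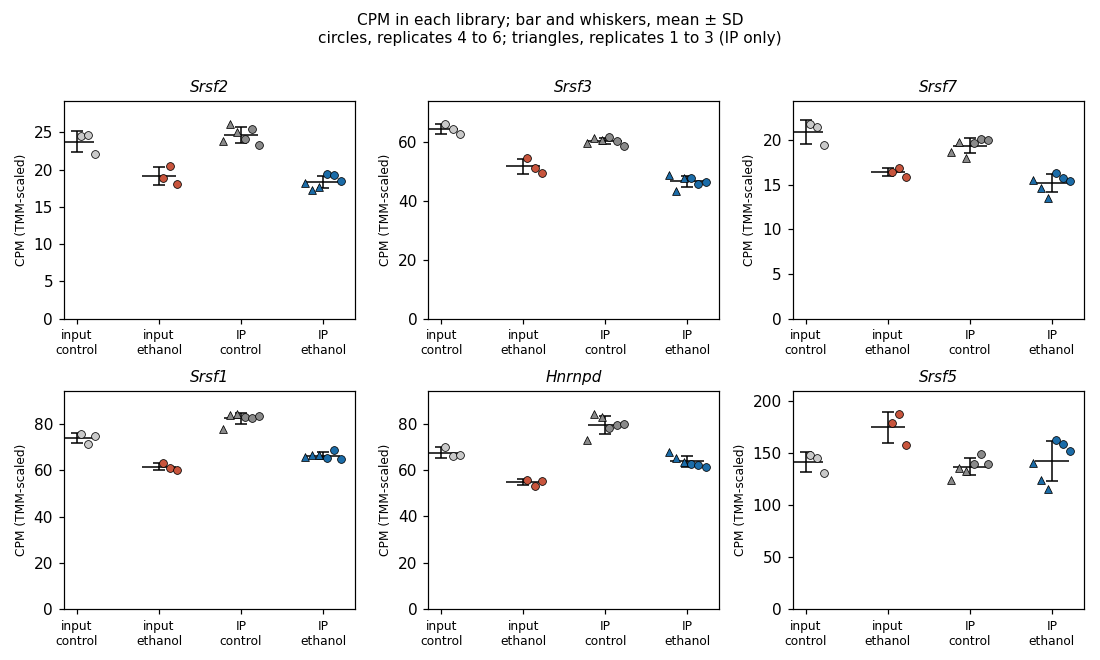
CPM scaled with TMM (y axis, from 0) in each of the 18 libraries for 5 genes that fell and for *Srsf5*, by fraction and treatment (x axis), with mean ± SD; circles are replicates 4 to 6 and triangles replicates 1 to 3, which have IP libraries only. *Srsf5* is the gene whose input ethanol libraries lie above the controls.

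The A/B type genes moved by smaller steps. *Hnrnpa3* fell by 0.25 on the log2 scale in IP and by 0.23 in input, *Hnrnpa2b1*, whose protein also sorts RNA for transport, by 0.20 and 0.17, and *Hnrnpa1*, a splicing repressor, by 0.14 and 0.16. *Hnrnpdl*, a paralog of *Hnrnpd* that lies 54638 bp from it on chromosome 5, fell by 0.21 and 0.16. *Hnrnpm* fell by 0.20 and 0.22. Of the genes for proteins that bind G-rich RNA, *Hnrnph1* fell by 0.21 and 0.22, *Hnrnph3* by 0.24 and 0.14, and *Hnrnph2* was not called at -0.05 and -0.07. In input the edgeR adjusted p of *Hnrnph3* was 0.0498, and the call was lost in 5 of 6 fits that left out a library, all but the fit without input ethanol replicate 6, with adjusted p of up to 0.277.

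Some of the members with the highest CPM changed by less than 10%. *Hnrnpk* was at 501.0 ± 3.7 CPM in input control and 467.5 ± 3.0 CPM in input ethanol libraries (SD, n = 3 each), and fell by 6.94% (edgeR adjusted p = 8.32e-05). *Hnrnpu*, a scaffold attachment protein, fell by 6.64% in input and fell by 6.03% in IP. *Hnrnpc*, which binds uridine tracts, fell by 8.09% in input and fell by 7.15% in IP.

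Of the called genes 17 were lower in both fractions, which is 89.5% of the list of each fraction. Of all genes tested 1343 were lower in both, which is 57.8% of the IP list and 70.5% of the input list. The input libraries and the IP libraries of replicates 4 to 6 came from the same dishes, so the fractions are not independent there. The dishes of replicates 1 to 3 had no input library. In these 6 IP libraries alone, ethanol lowered 15 of 31 genes (5.6% of all genes) and raised 0 (6.63% of all genes), and 14 of the 15 were also called lower in input. Only *Hnrnpab* of the 15 was not. This overlap was not counted over all genes. In the 6 IP libraries of replicates 4 to 6, 18 genes were lower (7.72% of all genes) and 1, *Srsf5*, was higher (7.45% of all genes). The genes lower in all of these fits were *Hnrnpa1*, *Hnrnpa2b1*, *Hnrnpa3*, *Hnrnpd*, *Hnrnpdl*, *Hnrnph1*, *Hnrnph3*, *Hnrnpm*, *Srsf1*, *Srsf2*, *Srsf3*, *Srsf6*, *Srsf7* and *Srsf11*, 14 in number. The share of all genes lower in all of these fits was not counted.

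A few genes were called in a single fraction. *Hnrnpab* was lower in IP by 0.16 (edgeR adjusted p = 5.66e-05). In input it was at 115, 119 and 119 CPM in control and at 87.7, 105 and 102 CPM in ethanol libraries, with a log2 fold change of -0.26 ± 0.08 that was not called (edgeR adjusted p = 0.108). All 3 ethanol libraries were below the controls, and replicate 4 stood lowest. With DESeq2 the adjusted p was 0.0101, and with sense-strand counts the change was -0.20 (edgeR adjusted p = 7.75e-16). *Hnrnpf* was called in IP (-0.07), and *Hnrnpa0* and *Hnrnpl*, which binds CA repeats, in input (-0.06 each). With 1 library left out, the call of *Hnrnpf* was lost in 5 of 12 fits (IP control replicates 2, 3 and 5 and IP ethanol replicates 4 and 6), with edgeR adjusted p of up to 0.0645. That of *Hnrnpa0* was lost in 4 of 6 fits (input control replicates 5 and 6 and input ethanol replicates 4 and 6) and that of *Hnrnpl* in 4 of 6 (replicates 5 and 6 of either treatment). The ethanol effect was not called different between fractions, over all 18 libraries, for any of these 4 genes.

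The other 10 members were called in neither fraction, namely *Hnrnph2*, *Hnrnpll*, *Hnrnpr*, *Hnrnpul1*, *Hnrnpul2*, *Srsf4*, *Srsf5*, *Srsf9*, *Srsf10* and *Srsf12*. *Hnrnpul2* was at 0.01 ± 0.02 in IP and -0.01 ± 0.02 in input on the log2 scale, and *Hnrnpr* at 0.03 ± 0.02 and -0.04 ± 0.03. *Srsf10*, whose activity is switched by dephosphorylation, was at -0.06 ± 0.03 and -0.05 ± 0.03. *Srsf12* had 4.72 to 6.35 CPM over all libraries, and its changes of 0.08 in each fraction had an SE of 0.07 and 0.09.

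*Srsf5* went the other way in input. Its level was 147.3, 145.1 and 130.2 CPM in input control and 178.7, 186.8 and 157.4 CPM in input ethanol libraries, so that all 3 ethanol libraries were higher. The log2 fold change was 0.30 ± 0.09 and was not called (edgeR adjusted p = 0.139), while DESeq2 called it (adjusted p = 0.00504). In IP the libraries overlapped. Of replicates 4 to 6, the dishes that also gave input, the controls were at 139.5, 148.6 and 138.9 CPM and the ethanol libraries at 162.5, 157.9 and 151.3 CPM, a log2 fold change of 0.14 (edgeR adjusted p = 0.00016). Of replicates 1 to 3, the controls were at 123.6, 135.0 and 132.9 CPM and the ethanol libraries at 140.5, 123.3 and 115.4 CPM, a log2 fold change of -0.04 (edgeR adjusted p = 0.576). The SD over the 6 IP ethanol libraries was 19.1 CPM at a mean of 142 CPM, and whether the sets of dishes differ was not tested.

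Promoters are shown for genes that fell together and for *Srsf5*, which did not. RefSeq promoters (GRCm38.p6, 250 bases before to 50 after the start) were at hand for 29 of the 31 members, all but *Hnrnpll* and *Hnrnpul2*. Both strands were searched for CCAAT (a box of that name), GGGCGG (the GC box), TATAAA (as found near start sites), CACGTG (an E-box), CCGGAAG (as found at ETS-family sites) and TGACGTCA (the cyclic AMP response element). GGGCGG was in 24 of the 29 (35.7% of all 32851 promoters) and CCAAT in 17 (37.4%). CCGGAAG was in 6 (8.86%), CACGTG in 5 (7.15%), TATAAA in 4 (13.6%) and TGACGTCA in 0 (1.79%). Of the 17 genes lower in both fractions 12 held GGGCGG and 9 held CCAAT, and of the other 12 members with a promoter 12 and 8 did. The stretches below lie upstream of annotated exons, run 5′ to 3′ on the strand of the gene, and have these motifs in capitals on either strand.
*Srsf2* (chr11:116853095-116853244, minus strand): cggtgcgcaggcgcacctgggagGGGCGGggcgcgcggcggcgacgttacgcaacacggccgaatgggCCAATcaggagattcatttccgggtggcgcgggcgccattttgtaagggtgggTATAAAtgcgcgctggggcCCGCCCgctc
*Srsf7* (chr17:80207308-80207457, minus strand): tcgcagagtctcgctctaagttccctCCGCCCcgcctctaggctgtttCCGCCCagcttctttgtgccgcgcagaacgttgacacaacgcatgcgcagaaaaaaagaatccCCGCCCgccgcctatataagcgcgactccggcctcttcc
*Srsf3* (chr17:29032569-29032627, plus strand): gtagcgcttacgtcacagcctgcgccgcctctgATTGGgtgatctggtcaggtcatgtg
*Hnrnpd* (chr5:99978939-99979060, minus strand): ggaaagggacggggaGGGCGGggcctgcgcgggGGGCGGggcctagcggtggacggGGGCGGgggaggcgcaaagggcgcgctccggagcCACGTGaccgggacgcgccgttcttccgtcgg
*Hnrnpa3* (chr2:75659094-75659243, plus strand): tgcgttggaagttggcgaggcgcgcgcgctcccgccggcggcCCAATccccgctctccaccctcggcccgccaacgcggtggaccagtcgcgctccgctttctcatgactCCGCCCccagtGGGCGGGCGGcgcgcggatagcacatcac
*Srsf5* (chr12:80945397-80945498, plus strand): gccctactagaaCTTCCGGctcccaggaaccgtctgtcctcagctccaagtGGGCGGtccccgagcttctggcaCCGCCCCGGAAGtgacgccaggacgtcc

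*Srsf2*, with the largest decrease in IP, holds 2 GC boxes, a CCAAT box and a TATA box, *Srsf7* 3 GC boxes and *Srsf3* a CCAAT box in these stretches. *Hnrnpd* holds 3 GC boxes and an E-box, and *Hnrnpa3* a CCAAT box and 3 GC boxes, 2 of which overlap. *Srsf5* holds 2 GC boxes and 2 matches to CCGGAAG, 1 of which overlaps a GC box. GC boxes stood before genes that fell and before *Srsf5* alike.

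A further fit asked whether the effect of ethanol differed between the fractions. Over 18 libraries 0 of 31 genes were called, and 0% of all genes were. At an unadjusted p under 0.05 there was 1 gene, *Srsf6*, which fell more in IP (difference -0.15 ± 0.04, edgeR adjusted p = 0.675), and DESeq2 called 0. A fit blocked on the dish used the 12 libraries of the 6 dishes that gave both fractions. There 1 member was called, *Srsf5*, against 0.416% of all genes. Its ethanol effect was 0.14 lower in IP than in input on the log2 scale (edgeR adjusted p = 0.0326).

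The fraction comparison asked which transcripts were more or less abundant on tagged ribosomes than in the lysate. Of the 20 hnRNP genes 15 were higher and 2 lower in IP, and of the 11 SR genes 1 was higher and 5 lower, which makes 16 higher and 7 lower in all. Of all genes tested 25.2% were higher and 25.8% lower, and of those averaging 5 CPM or more 46.6% were higher and 32% lower. The share of higher hnRNP genes was above both backgrounds and that of SR genes below both. The groups did not overlap for 10 higher genes (13.1% of all genes), all hnRNP genes, and for 1 lower gene, *Srsf9* (11.9% of all genes). The median log2 fold change was 0.20 for hnRNP genes and -0.10 for SR genes, and -0.03 for all genes tested. With total counts in place of TMM, 13 genes were higher and 12 lower.

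**Figure D3:**
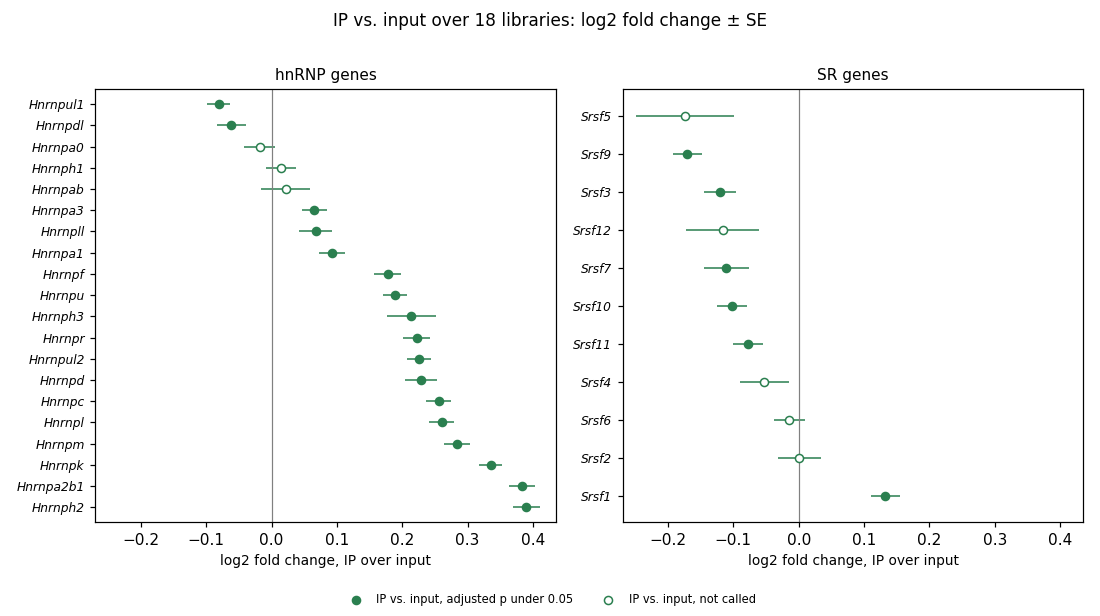
Log2 fold change of IP over input in 18 libraries (x axis, whiskers ± SE) for the hnRNP genes (left) and the SR genes (right), with filled points where the edgeR adjusted p was under 0.05. Most hnRNP genes lie right of 0 and most SR genes left of it, with *Srsf1* the SR gene that was higher in IP.

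*Hnrnph2* rose most, at 64.9, 67.9 and 70.2 CPM (lowest, median and highest) in input and 84.2, 88.8 and 92.4 CPM in IP, a log2 fold change of 0.39 ± 0.02 (edgeR adjusted p = 1.75e-27). *Hnrnpa2b1* went from 270, 295 and 313 CPM to 346, 386 and 426 CPM, a change of 0.38 ± 0.02 (edgeR adjusted p = 3.13e-28). Both were higher in every IP library than in any input library. *Hnrnpk* went from 465, 485 and 505 CPM to 584, 612 and 644 CPM, a change of 0.34 ± 0.02 (edgeR adjusted p = 2.85e-28), and *Hnrnpm* from 114.1, 125.9 and 136.1 CPM to 136.5, 151.1 and 167.02 CPM, a change of 0.28 ± 0.02 (edgeR adjusted p = 7.00e-22). These groups did not overlap either, although the lowest IP library of *Hnrnpm* was only just above the highest input library.

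The largest decreases in IP were smaller than these. *Srsf9* was at 56.6, 58.0 and 60.8 CPM in input and 49.6, 51.8 and 53.8 CPM in IP, a log2 fold change of -0.17 ± 0.02 (edgeR adjusted p = 2.93e-10). *Srsf3* changed by -0.12 ± 0.02 (edgeR adjusted p = 1.29e-05), *Srsf7* by -0.11 ± 0.03 (edgeR adjusted p = 0.00529) and *Srsf10* by -0.10 ± 0.02 (edgeR adjusted p = 0.000106). Unlike *Srsf9* these overlapped between the fractions over both treatments. The change of *Srsf11* was -0.08, and the lower hnRNP genes were *Hnrnpul1* at -0.08 and *Hnrnpdl* at -0.06. *Srsf1* was higher by 0.13. *Srsf5* was not called at -0.17 ± 0.08. In the 12 libraries with the dish as a block it was called at -0.07 (edgeR adjusted p = 0.00252), while *Srsf7* at -0.06 and *Hnrnpdl* at -0.06 no longer were (edgeR adjusted p = 0.152 and 0.0512). The latter calls were also lost in the same 12 libraries without the block (edgeR adjusted p = 0.155 and 0.0554), where *Srsf5* was not called either (edgeR adjusted p = 0.334). Microglial markers were lower in IP as given above. The 6 fibroblast and meninges markers summed to 217 to 225 CPM in input and 102 to 120 CPM in IP, with 1 of them under 1 CPM in every group, 4 called lower and 2 higher in IP. The part of these cells in the differences was not tested.

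Related gene lists, chosen with earlier results of these data known, show how the rest of the splicing machinery behaved with ethanol. The shares of all genes averaging 5 CPM or more, as above, were 17.3% lower and 22.9% higher in IP and 15.2% lower and 14.5% higher in input. Of 36 genes for core spliceosome proteins, 21 (58.3%) were lower in IP and 16 (44.4%) in input, and none was higher. *Snrnp70*, the U1-70K protein of the U1 particle, fell most, by 0.33 in IP and 0.28 in input. Of 23 SR-related genes 7 (30.4%) were lower in IP and 9 (39.1%) in input and none was higher, with *Luc7l* at -0.32 and -0.26. Of 17 other genes for hnRNP-type proteins, 6 (35.3%) were lower and 2 (11.8%) higher in IP, and 7 (41.2%) lower and 3 (17.6%) higher in input. *Ptbp2*, the neuronal polypyrimidine tract binding protein, rose by 16.4% in IP and 18.7% in input.

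The other lists were more evenly split, with shares in input of 8.70% to 18.8% in either direction. Of 16 genes for the kinases, phosphatases and importins of SR proteins, 4 (25.0%) were lower and 3 (18.8%) higher in IP, and 3 (18.8%) lower and 2 (12.5%) higher in input. Among them *Alyref*, an export adaptor kept in this list, fell by 0.17 and 0.22 on the log2 scale, and *Clk4*, a kinase of SR proteins, rose by 0.17 in input. Of 23 tissue-regulated splicing factors tested, 3 were lower and 3 higher in IP (13.0% each) and 2 lower and 2 higher in input (8.70% each), with *Khdrbs1* (Sam68) at -0.23 in both. Of 15 NMD factors, 5 (33.3%) were lower and 3 (20.0%) higher in IP, and 2 were lower and 2 higher in input (13.3% each). In the comparison of IP with input, 26 of the 36 core spliceosome genes were higher (72.2%) and 6 lower (16.7%), and 12 of the 23 SR-related genes were higher (52.2%) and 6 lower (26.1%), beside 46.6% higher and 32% lower among all genes averaging 5 CPM or more. There the U5 protein gene *Prpf6* stood highest at 0.99 and the Sm protein gene *Snrpe* lowest at -0.62.

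**Figure D4:**
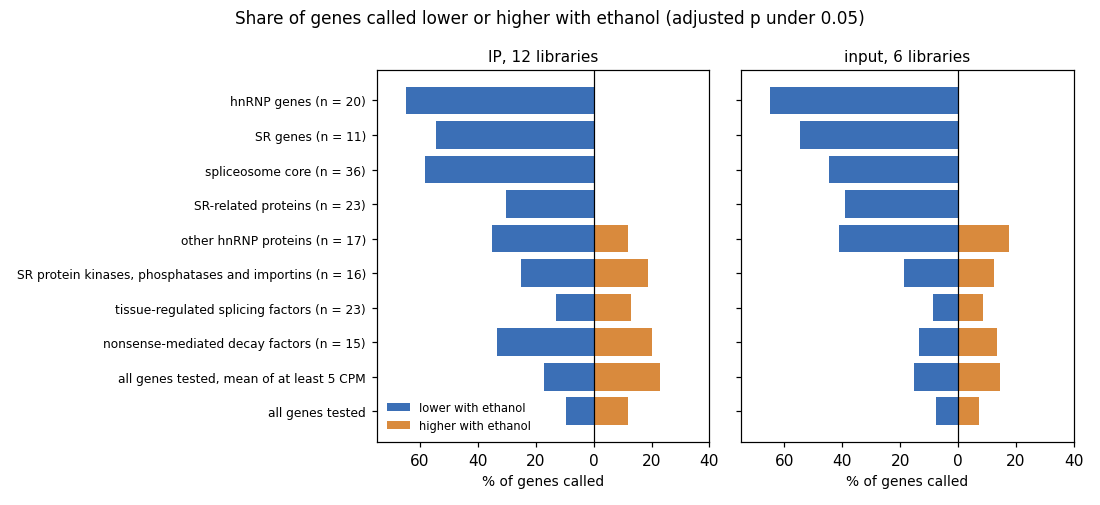
Share of genes called lower (left of 0, blue) or higher (right of 0, orange) with ethanol at an edgeR adjusted p under 0.05, in IP and input, for the hnRNP and SR genes, 6 related lists and all genes tested. The hnRNP genes reach 65.0% lower and the SR genes 54.5% lower in each fraction, with none higher.

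A gene listed as an endothelial and mural marker moved with ethanol in the same direction, and its list summed higher in IP than in input. The summed level of 7 endothelial and mural markers was 1291 to 1361 CPM in input control and 891 to 959 in input ethanol libraries, and 1619 to 1753 and 1045 to 1242 in IP. Most of it was *Acta2*, smooth muscle actin, at 1186 ± 34.2 and 790 ± 34.5 CPM in input, while 4 of the 7 markers were under 1 CPM in every group. The astrocyte markers summed to slightly more with ethanol. Of these 10 markers, 4 were called higher and 0 lower in IP, and 4 higher and 3 lower in input. The part of these shifts in the decreases was not tested.

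In the GENCODE annotation the members carry many transcripts marked for decay. An NMD transcript is annotated for 61.3% of them, 9 of 11 SR genes and 10 of 20 hnRNP genes, against 24.9% of the protein-coding genes tested. A retained-intron transcript is annotated for 71.0%, against 51.2%. Both backgrounds include genes with low counts, and none was made for genes averaging 5 CPM or more, as all members do. Of the 17 genes that fell in both fractions 13 have an NMD transcript and 15 a retained-intron transcript, and of the other 14 members 6 and 7 do. The counts were made per gene, so that these transcripts and the coding ones were counted together.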

How the data were processed

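Per the labels and the study's methods, the authors used Trimmomatic for trimming and STAR for alignment (GRCm38), and deposited raw, unnormalized counts of read pairs per gene, unstranded in a table of all 18 libraries and by strand for each library. STAR set aside pairs mapped to several places (3.60% on average) and pairs over more than 1 gene (5.50%). The deposited table equals the single-library files (0 differences). Of the 51912 symbols, 26 turned into dates were restored by gene identifier.

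The 24495 genes that summed to 10 or more read pairs were fitted together, and p-values were adjusted over all of them by the method of Benjamini and Hochberg (threshold 0.05). The test was edgeR 4.0.16 (TMM, estimateDisp, glmQLFit with robust estimation, glmQLFTest) in R 4.3.3, where the study used DESeq2. CPM are scaled with TMM, and an SE is the size of the log2 fold change over the square root of F. IP vs. input was fitted over 18 libraries with treatment as a term, ethanol in 12 IP and in 6 input libraries, and the difference between fractions as an interaction. DESeq2 1.42.0 and the other alternatives are given in the closing section, and the fits were tested on simulated data. The annotation was GENCODE M21 (GRCm38) and the promoters are from RefSeq.

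Named with values by library were, per comparison, called members (5 CPM or more on average) with the 4 largest rises and the 4 largest falls. Of each related list the largest called increase and decrease could be named. The result of 1 gene that this covers is not reported here. *Srsf1*, *Srsf5*, *Hnrnpab* and the members described by a single value were chosen after their values were seen. The members, lists and tests were chosen with earlier results of these data known. Input and IP libraries of a dish are paired by the dish number in the labels (correlation of their deviations from the group means 0.034 to 0.206). The labels give control and ethanol dishes only a replicate number in common. Replicates are dishes of pooled pups, so that p-values refer to the spread between dishes. edgeR estimates that spread with information from all genes, not from the dishes of 1 gene alone.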

Additional observations from a re-analysis of the deposited data

Results flagged for a closer look

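In 6 of 62 groups of 6 IP libraries (9.68%), the CPM of a member in 1 library stood apart from the rest, as its gap to the nearest library divided by the range of the group was above Dixon's critical value for 6 samples. Chance flags about 1 in 20 groups. The gap took 0.732 of the range for *Srsf1* in IP control replicate 1, at 77.9 CPM against 82.5 to 84.2 CPM in the others, and 0.634 for *Srsf11* in IP control replicate 2. It was 0.695 for *Hnrnpdl* in IP control replicate 5 and 0.669 for *Hnrnpm* in IP ethanol replicate 3. In IP ethanol replicate 1 it was 0.685 for *Hnrnpa2b1* and 0.753 for *Hnrnpa3*, which were highest of their group there at 380 and 185 CPM. Each of these 6 genes was called lower with ethanol in IP whichever library was left out.

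*Srsf5* drew attention because its ethanol effect was lower in IP than in input by 0.14 on the log2 scale (-0.14, edgeR adjusted p = 0.0326) in the 12 libraries with the dish as a block. Over 18 libraries without the block the difference was -0.25 ± 0.14 (edgeR adjusted p = 0.852).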

How the results depend on the processing

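With ethanol, the count of lower members was 15 to 21 in IP and 16 to 20 in input under every alternative but the test against a 1.2-fold change, where it was 2 in IP and 0 in input. The alternatives were the size factors of DESeq2, total counts, no filter on low counts, sense-strand counts, removal of GC and length trends, a block for the replicate number, subsets of the dishes and DESeq2. Of these, shares of all genes were counted only for the subsets of the dishes. With single libraries left out, the count was 18 to 20 lower and 0 higher in IP, and 15 to 18 lower and 0 to 1 higher in input, where the higher member was *Srsf5* without replicate 6 of either treatment. *Srsf5* was the 1 higher member in limited IP (replicates 4 to 6), and in input with DESeq2 and with the replicate block. In IP replicates 1 to 3 its log2 change of -0.042 had the opposite sign to that over 12 libraries. The cause was not tested.

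In IP vs. input the 1.2-fold test left 3 members higher and 0 lower, and total counts gave 12 lower. With single libraries left out there were 15 to 16 higher and 6 to 9 lower members. The median log2 fold change of all genes moved from -0.03 to -0.08 with total counts. The interaction called 0 members with any single library left out.

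Blocks concern the pairing of dishes. With the dish as a replicate block, 16 members were higher and 8 lower in IP vs. input, and 1 was called in the interaction, *Srsf5* (adjusted p = 0.0326). Control and ethanol dishes of a number correlated at 0.037 to 0.074 in input and -0.149 to 0.399 in IP. Input and IP of one dish correlated at only 0.034 to 0.206, so these values cannot tell whether a number marks a batch. With that number as a replicate block, 19 members were lower in IP, and 20 lower and 1 higher in input, where *Srsf5* (adjusted p = 2.51e-37) and *Hnrnpab* (adjusted p = 7.86e-24) were then called.

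With 3 dishes per group in input, the number of dishes limits the precision. In IP vs. input the call of *Hnrnpll* was lost without input control replicate 5, input ethanol replicate 5 or IP ethanol replicate 1, and that of *Hnrnpdl* without input ethanol replicate 6.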
